A study of Mus musculus with 28 samples.

Results

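The transcriptional response of mouse epidermal stem cells to a fresh wound was measured in skin that had recovered from an imiquimod treatment. The comparison holds 4 of the 28 samples of the series, chosen by their titles: 2 RNA-seq libraries of cells taken 6 h after wounding and 2 of cells from unwounded skin. All genes that passed a filter on low counts were tested. Per the labels, the mice of both groups were C57BL/6, labelled female, and received topical imiquimod for 6 days at postnatal day 60. Imiquimod activates Toll-like receptor 7 and causes a psoriasis-like inflammation of mouse skin. The wounded group then received full-thickness wounds in dorsal skin 30 days after the treatment and its cells were taken 6 h later, while the unwounded group was harvested at 30 days with no wound. The shared treatment means that neither group is untreated skin. Matched groups given the control cream vanicream in place of imiquimod, and post-imiquimod skin 12 h after a wound, are used below only where they are named. In all groups the cells were sorted for integrin α6, integrin β1 and Sca1 and against CD34, a gate for basal cells of the epidermis between hair follicles and of the upper follicle. The sources used here do not say whether a library was made from 1 mouse or from a pool. The p values therefore measure the spread between these libraries, which may in part be technical.

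Basal epidermal cells hold the skin's reserve of dividing keratinocytes, anchored to the basement membrane. When skin is cut, keratinocytes at the edge switch from this resting program to a migratory one. They make the wound-associated keratins, antimicrobial proteins, chemokines that call in neutrophils, and proteases that loosen the matrix, and they raise their capacity for making protein. Early response genes such as Fos are known as fast and short-lived reporters of stress and growth factor signals, and Id and Wnt genes as keepers of the stem cell state.

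Libraries 1 and 2 held 76993427 and 26810980 counts in 6 h wounds, against 23623968 and 29453057 counts in unwounded skin. Krt5 and Krt14, the keratin genes that define basal keratinocytes, were the most abundant transcripts in each of the 4. Reads of Y-linked genes (6023) and the near absence of Xist (1 read) showed male tissue in unwounded library 1, which is labelled female, whereas Xist gave 13575 to 60848 reads and Y-linked genes a single read in each of the others. Library 1 of unwounded control skin, used further below, was male by the same reads. Whether the sex label is wrong or the library itself belongs elsewhere cannot be told apart here, so results were also computed without it. Levels are given as CPM on library totals scaled by the TMM method, library 1 before library 2. Changes are log2 fold changes of 6 h wounds over unwounded skin with their standard errors. Adjusted p values are those of the quasi-likelihood F test in edgeR with Benjamini-Hochberg adjustment over all genes tested, and "rose" and "fell" are used for genes past 0.05. A gene given a direction also passed in each of 4 fits that left out 1 of the compared libraries, unless a library is named, and its CPM values did not overlap between the groups. An exact permutation test of 2 libraries against 2 could not give a p below 0.333.

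Wounding was followed within 6 h by a broad change of the transcriptome. Of 17299 genes tested, 3485 rose (20.1%) and 3210 fell (18.6%), 38.7% in all, and for 70.6% the CPM of the groups did not overlap. The list counts below are to be read beside these shares. A change of at least 1 on the log2 scale was estimated for 1646 of the genes that rose (9.52% of those tested) and 2073 of those that fell (12%). In all 4 fits that left out a library 1879 genes rose and 1486 fell. Without wound library 2 only 2269 genes rose and 1775 fell, the smallest counts of these fits. Without unwounded library 1, the male one, 2692 rose and 2794 fell, and 2562 and 2528 of them were among the genes called with all libraries. The median log2 change over all tested genes was -0.02. Among the genes with the largest rise were the serine protease inhibitor gene Serpina3n, the wound keratin Krt6b and the chemokine receptor Cxcr2, and among those with the largest fall the nuclear receptor Nr4a3, the Wnt enhancer Rspo3 and the transcriptional inhibitor Id3.

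**Figure D1:**
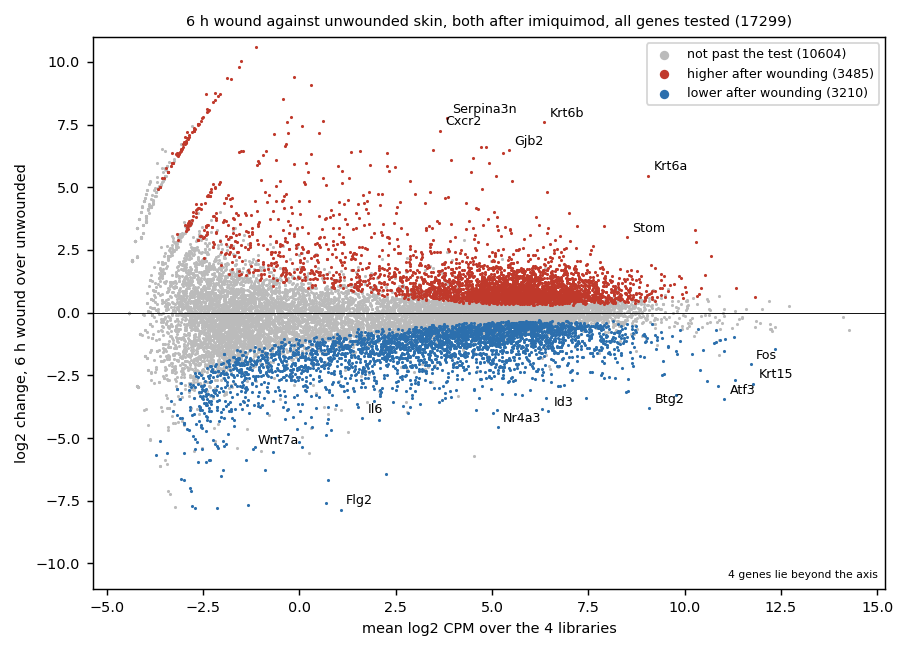
Each point is 1 of the 17299 tested genes, with its mean log2 CPM over the 4 libraries on the x axis and its log2 change (6 h wounds over unwounded skin, both after imiquimod) on the y axis. Red points are the 3485 genes that rose and blue points the 3210 that fell. Changes of both signs occurred at all levels of abundance, and 4 genes lie beyond the axis.

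Serpina3n, whose product inhibits serine proteases of inflammatory cells, stood at 205 and 223 CPM in 6 h wounds, against 1.54 and 0.516 CPM in unwounded skin. The groups were far apart, and the change of 7.76 ± 0.49 (adjusted p = 5.8e-06) corresponds to a 217-fold rise. The log2 change was 8.65 without unwounded library 1 and 7.05 without unwounded library 2, so the fold itself is loosely set. The gene (ENSMUSG00000021091.8) lies on chromosome 12, 104406646 to 104414334, in the RefSeq annotation of GRCm38.p6. Krt6b, a keratin that interfollicular epidermis makes only when injured or inflamed, reached 1159.5 and 1594 CPM in 6 h wounds, against 12.4 and 1.89 CPM in unwounded skin. It rose by 7.61 ± 1.64 (adjusted p = 0.00551), and lies on chromosome 15, 101676023 to 101680293. The log2 change was 9.47 without unwounded library 1 and 6.72 without unwounded library 2. Both unwounded libraries were low, but library 1 held several times the Krt6b of library 2. Among the 14 genes with the largest rise, unwounded library 1 was likewise well above library 2 for all except Gjb2 and Lgi2, which were nearly equal in both. The part of sex or of other differences between the unwounded libraries in this was not tested.

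**Figure D2:**
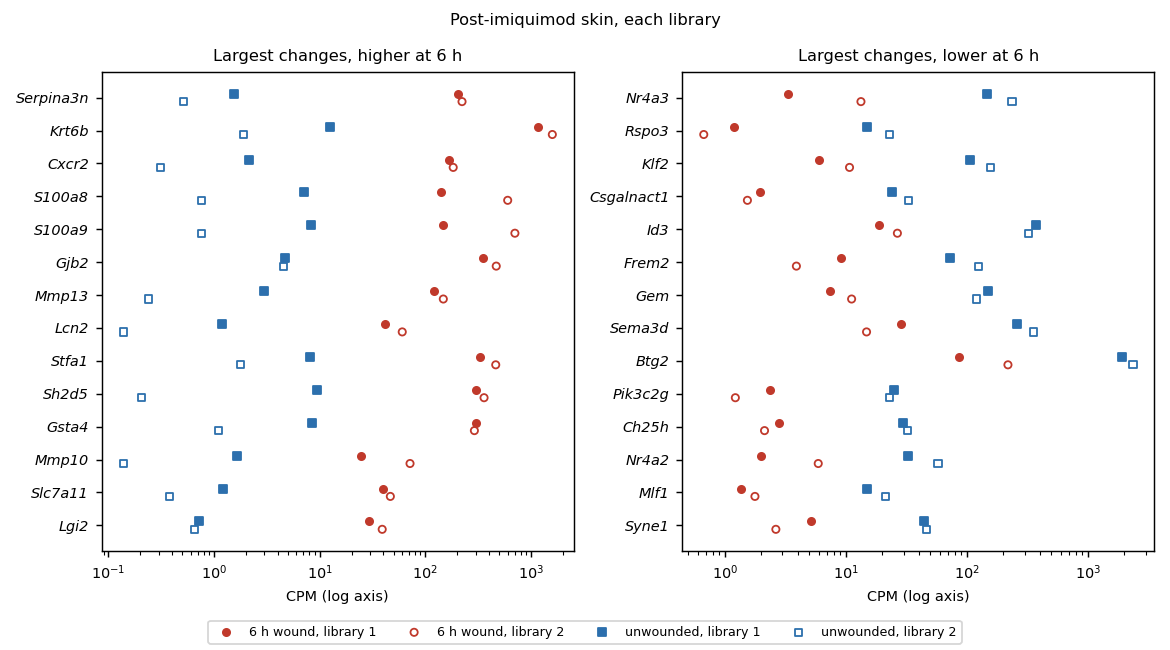
CPM of single libraries on a log axis for the 14 genes with the largest rise (left) and the 14 with the largest fall (right), by the rule for named genes. Red circles are 6 h wounds and blue squares unwounded skin, with library 1 filled and library 2 open. The rule required that the groups not overlap, so the gap between them is not a result.

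The wound keratins and the proteins of the stress-induced cornified envelope were strongly raised. Of 23 tested members of the list of stress keratins and envelope genes 16 rose and none fell, with a median log2 change of 3.49 against -0.02 for all genes. In 4 members the unwounded libraries held no read, and with these set to a lower bound of the rise (3 reads over the group) the median was 2.26. The count of risers was 10 without either unwounded library and 9 without wound library 2. Krt17, a keratin of hair follicles and of wounded epidermis, stood at 2791 and 4458 CPM in 6 h wounds, against 684 and 832 CPM in unwounded skin. The change was 2.26 ± 0.45 (adjusted p = 0.00177).

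Krt6a, the close relative of Krt6b, reached 3447 and 4843 CPM in 6 h wounds, against 159 and 29.4 CPM in unwounded skin. Its change of 5.46 ± 1.42 (adjusted p = 0.0133) missed the threshold without unwounded library 2, at 4.64 and an adjusted p of 0.0639. Krt16, the partner that pairs with these keratins, stood at 2835 and 3892 CPM in 6 h wounds, against 538 and 423 CPM in unwounded skin, a change of 2.81 ± 0.85 (adjusted p = 0.0237). Its adjusted p was 0.0846 without unwounded library 1, 0.12 without unwounded library 2 and 0.0933 without wound library 2. Sequence shared by Krt6a and Krt6b, and by the Sprr2 genes, could let reads be assigned to a wrong copy, so the split between such copies is uncertain.

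Small proline-rich proteins are crosslinked into the envelope of stressed keratinocytes. Sprr2h had 11 and 48.6 CPM in 6 h wounds, against 0.317 and 0.344 CPM in unwounded skin (change 6.46 ± 1.19, adjusted p = 0.00228). Sprr2e held 58 and 82 reads in 6 h wounds and none in either unwounded library, at least a 23.1-fold rise when 3 reads over both unwounded libraries are taken as the limit of detection. Sprr2i had 2.57 and 9.56 CPM in 6 h wounds, against 0.0905 and 0 CPM in unwounded skin (adjusted p = 0.00119). Wound library 2 was the higher of the pair for all of these, about 4 times the level of library 1.

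Antimicrobial and alarmin genes rose together with the keratins. Of 18 tested members 12 rose and 2 fell, with a median of 3.62, or 3.12 with the 3 members at no unwounded read set to their bound. The count of risers was 7 without unwounded library 2 and 7 without wound library 2. S100a8 and S100a9 encode the subunits of calprotectin, which binds zinc and manganese and alerts immune cells. S100a8 had 141 and 602 CPM in 6 h wounds, against 7.06 and 0.757 CPM in unwounded skin, a change of 6.61 ± 1.22 (adjusted p = 0.00236). S100a9 had 148 and 705 CPM in 6 h wounds, against 8.24 and 0.757 CPM in unwounded skin, a change of 6.60 ± 1.32 (adjusted p = 0.00367). In wound library 2 both were more than 4 times as abundant as in wound library 1, a wider gap than in any other gene of the largest risers.

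Lcn2, whose product withholds iron from bacteria, had 41.1 and 60.5 CPM in 6 h wounds, against 1.18 and 0.138 CPM in unwounded skin (change 6.38 ± 0.85, adjusted p = 0.000323). Stfa1, a cysteine protease inhibitor of the stefin family, had 327 and 464 CPM in 6 h wounds, against 8.01 and 1.79 CPM in unwounded skin (change 6.36 ± 1.16, adjusted p = 0.00223). Defb3, a beta-defensin that kills bacteria, held 32 and 57 reads in 6 h wounds and none in unwounded skin, at least a 14.7-fold rise by the same limit. The members that fell were Rnase4 (218 and 183 CPM in 6 h wounds, against 423 and 363 CPM in unwounded skin) and Hamp, the iron hormone hepcidin (0.0128 and 0 CPM in 6 h wounds, against 0.905 and 0.551 CPM in unwounded skin). The list was thus not raised as a whole.

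Genes that attract and feed neutrophils rose, some of them from near the limit of detection. Of 18 chemokines and colony-stimulating factors tested, 8 rose and 5 fell (median 0.71), and 5 rose without unwounded library 1, without wound library 1 or without wound library 2. Csf3, the growth factor of neutrophils, had 7.93 and 32.8 CPM in 6 h wounds, against 0.0905 and 0.103 CPM in unwounded skin (adjusted p = 9.07e-05). Cxcl2 had 4.21 and 25.9 CPM in 6 h wounds, against 0.407 and 0 CPM in unwounded skin (adjusted p = 0.00356). Cxcl3 had 3.52 and 14.5 CPM in 6 h wounds, against 0.136 and 0 CPM in unwounded skin (adjusted p = 0.000399). Both are ligands of Cxcr2. All 3 were higher in wound library 2 than in library 1, by about 4 times or more, and their fold is not given because it rests on few unwounded reads or none, as for Sprr2i.

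Cxcl1, a further ligand of this receptor, had 71.2 and 108 CPM in 6 h wounds, against 23 and 9.08 CPM in unwounded skin (change 2.49 ± 0.50, adjusted p = 0.00291). Ccl20, which attracts Ccr6-bearing lymphocytes, had 78.6 and 72.9 CPM in 6 h wounds, against 10.3 and 4.44 CPM in unwounded skin (change 3.37 ± 0.54, adjusted p = 0.000821). Cxcl5 held 22 and 7 reads in 6 h wounds and none in unwounded skin, and it lost its call in each fit that left out a library. Chemokines of other classes went the other way. The interferon-induced Cxcl10 had 1.95 and 2.01 CPM in 6 h wounds, against 6.84 and 7.23 CPM in unwounded skin (change -1.83 ± 0.35, adjusted p = 0.00121). The skin T cell chemokine Ccl27a had 23.4 and 21.4 CPM in 6 h wounds, against 76.9 and 87.3 CPM in unwounded skin (change -1.87 ± 0.41, adjusted p = 0.00445).

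Cxcr2, the receptor shared by these neutrophil chemokines, had 169 and 184 CPM in 6 h wounds, against 2.13 and 0.31 CPM in unwounded skin. The change was 7.26 ± 0.95 (adjusted p = 0.000318). Neutrophils themselves carry Cxcr2, S100a8 and S100a9, so their markers were read beside it. Of 13 neutrophil markers 5 were tested and 3 of them, the same 3 genes, rose. Mpo, Elane, Ly6g, Ngp, Camp, Retnlg, Mmp8 and Fpr1, of which several define the lineage, each held at most 2 reads in a 6 h wound library and at most 5 in an unwounded one, and the receptor gene Csf3r held 0 and 3 against 0 and 0. The summed level of the 5 tested markers was 518 and 1530 CPM in 6 h wounds, against 262 and 206 CPM in unwounded skin. In 6 h wounds nearly all of it was the 3 genes that rose. In unwounded skin it was nearly all Il1r2, the gene of a decoy receptor, at 58.7 and 41.6 CPM in 6 h wounds, against 245 and 204 CPM in unwounded skin, which did not pass (adjusted p = 0.0507).

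Markers of other cells were low but not absent. Of 15 tested macrophage and monocyte markers 4 rose (Cd14, Mrc1, C1qa and C1qb) and none fell, and Mrc1 alone did so in every fit without a library. The mannose receptor Mrc1 had 2.66 and 1.22 CPM in 6 h wounds, against 0.0453 and 0 CPM in unwounded skin, and the complement gene C1qa held 13 and 10 reads against 0 and 0. Of 4 tested T cell markers Thy1 was called higher (389 and 427 CPM in 6 h wounds, against 179 and 117 CPM in unwounded skin), but not in any fit without a library, while Cd3g held 5 and 0 reads against 10 and 3. Of 8 Langerhans and dendritic cell markers only Epcam, also an epithelial gene, rose (353 and 404 CPM in 6 h wounds, against 172 and 143 CPM in unwounded skin). Of 5 tested markers of red blood cells and platelets 2 rose, 1 of them in every fit without a library, and 0 fell. Their summed level was 24.5 and 25.4 CPM in 6 h wounds, against 5.98 and 4.75 CPM in unwounded skin. Of 6 tested Merkel cell and nerve markers 1 rose, the keratin Krt18, and 0 fell. The part of other cell types in the changes of this report was not tested.

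Interleukins that signal to keratinocytes through the STAT3 pathway rose with the chemokines. Of 23 tested genes of the gp130 and STAT3 axis 10 rose and 5 fell (median 0.24), and 6 rose without either wound library. Il24, a cytokine of the interleukin-10 family that acts on epithelial cells, had 71.5 and 139 CPM in 6 h wounds, against 8.33 and 1.89 CPM in unwounded skin (change 4.39 ± 0.99, adjusted p = 0.00679). Its relative Il19 had 10 and 35.7 CPM in 6 h wounds, against 0.0905 and 0 CPM in unwounded skin (adjusted p = 0.000158). Stat3 itself had 831 and 1028 CPM in 6 h wounds, against 470.0 and 459.7 CPM in unwounded skin (change 1.00 ± 0.18, adjusted p = 0.00105), a 2-fold rise. Il6, an inflammatory cytokine that signals through gp130, moved in the opposite direction, with 0.538 and 0.908 CPM in 6 h wounds, against 10.7 and 15.2 CPM in unwounded skin (change -4.21 ± 0.77, adjusted p = 0.00123).

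No ligand of the interleukin-1 family passed as higher. Of 10 tested ligands none rose and 3 fell (median -0.64). Il1a, an alarm cytokine stored in keratinocytes, had 3.25 and 4.38 CPM in 6 h wounds, against 5.57 and 6.02 CPM in unwounded skin (-0.61 ± 0.37, adjusted p = 0.212). Il1b was scarce in every library, at 0.948 and 0.75 CPM in 6 h wounds, against 0.905 and 1.2 CPM in unwounded skin (-0.30 ± 0.58, adjusted p = 0.711). The receptor antagonist Il1rn fell, with 57.8 and 61.5 CPM in 6 h wounds, against 197 and 168 CPM in unwounded skin (change -1.62 ± 0.25, adjusted p = 0.000334), as did Il1f5, the antagonist of the interleukin-36 receptor, with 6.69 and 3.91 CPM in 6 h wounds, against 28.7 and 65.6 CPM in unwounded skin (change -3.13 ± 0.68, adjusted p = 0.00488). Among 14 receptors and signalling genes of the family 4 rose and 3 fell (median 0.23). Irak4, the kinase below these receptors, had 36.7 and 38.3 CPM in 6 h wounds, against 11.2 and 15.7 CPM in unwounded skin (change 1.47 ± 0.21, adjusted p = 0.000154). The interleukin-18 receptor chain Il18r1 had 36.8 and 30.2 CPM in 6 h wounds, against 7.7 and 11.2 CPM in unwounded skin (change 1.82 ± 0.33, adjusted p = 0.00102).

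Inflammasome genes are known from work on memory of inflammation in skin. Of 12 tested genes 2 rose and 2 fell (median 0.19), a share close to the 38.7% of all genes that passed, and 1 rose in each fit without a library, while 1 fell without unwounded library 2 and none without wound library 2. Aim2, whose protein detects cytosolic DNA, had 19.1 and 11.9 CPM in 6 h wounds, against 9.96 and 10.6 CPM in unwounded skin, with a change of 0.59 ± 0.29 that did not pass (adjusted p = 0.129). The groups overlapped for Casp1, which encodes the enzyme that cleaves pro-interleukin-1β, with 33.4 and 22 CPM in 6 h wounds, against 30.7 and 45.7 CPM in unwounded skin (-0.46 ± 0.27, adjusted p = 0.194). Gsdmc, a pore-forming gasdermin, did rise, with 91.8 and 60.9 CPM in 6 h wounds, against 4.89 and 7.09 CPM in unwounded skin (change 3.67 ± 0.56, adjusted p = 0.000606). Nlrp1b was called lower (0.167 and 0.079 CPM in 6 h wounds, against 0.996 and 3.37 CPM in unwounded skin) but not without unwounded library 2 or wound library 2.

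Genes of the NF-κB pathway went both ways. Of 22 tested genes 6 rose and 5 fell (median -0.18), and 3 rose without wound library 2. Tnfrsf1b, a receptor for tumour necrosis factor, had 4.19 and 8.92 CPM in 6 h wounds, against 1.22 and 0.31 CPM in unwounded skin (change 3.12 ± 0.63, adjusted p = 0.00178). Tnfaip2, a target of that factor, had 4.89 and 6.48 CPM in 6 h wounds, against 0.77 and 0.895 CPM in unwounded skin (change 2.75 ± 0.34, adjusted p = 6.88e-05). The feedback enzymes that remove ubiquitin from the pathway were lower. Tnfaip3 had 119.9 and 141 CPM in 6 h wounds, against 756 and 1489 CPM in unwounded skin (change -3.11 ± 0.47, adjusted p = 0.000435). Cyld had 28.9 and 20 CPM in 6 h wounds, against 77.1 and 68.2 CPM in unwounded skin (change -1.57 ± 0.20, adjusted p = 8.54e-05).

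Matrix proteases rose from very low levels. Of 21 tested genes of the protease and plasminogen list 12 rose and 2 fell (median 1.78), with 4 risers without unwounded library 2 and 7 without either wound library, and 1 faller without unwounded library 2 or wound library 2. Promoter sequence is shown for these genes because the AP-1 motif TGANTCA, the element bound by Fos and Jun proteins, is well known in metalloproteinase promoters. In the 250 bases before the RefSeq start (GRCm38.p6), read on both strands, the motif was present in 8 of 17 list members with a promoter entry (47.1%), against 6.87% of 27025 promoters and 4.97% of the 11507 of 17299 tested genes with an entry. The motif reads alike on both strands and shares no match with the motif TGACGTCA given further below. Among all genes that rose it was in 4.05% of promoters, and among all that fell in 4.55%, both below the share of tested genes. The metalloproteinase genes with a match lie close together on chromosome 9, and Mmp1a and Mmp1b are near copies, so these matches are not independent. Serpinb2 and F3 also held the motif but did not rise. A match describes these letters only, and the list was chosen with results known. The 100-base windows below give the match in capitals, 5′ to 3′ on the strand of the gene. Mmp13 and Mmp10 are shown by the rule for named genes, and the other 3 were chosen after their values were seen, as further members with a match.
Mmp13, chr9:7272414-7272513, plus strand: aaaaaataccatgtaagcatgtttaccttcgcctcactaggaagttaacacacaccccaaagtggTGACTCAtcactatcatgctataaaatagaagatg
Mmp10, chr9:7502232-7502331, plus strand: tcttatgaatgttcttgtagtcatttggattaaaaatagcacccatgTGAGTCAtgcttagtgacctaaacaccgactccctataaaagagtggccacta
Mmp3, chr9:7445722-7445821, plus strand: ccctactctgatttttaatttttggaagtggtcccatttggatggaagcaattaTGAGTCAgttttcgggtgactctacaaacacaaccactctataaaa
Mmp1a, chr9:7464021-7464120, plus strand: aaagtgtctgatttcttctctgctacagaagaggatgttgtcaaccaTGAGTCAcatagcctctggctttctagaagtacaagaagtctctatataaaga
Mmp1b, chr9:7388067-7388166, minus strand: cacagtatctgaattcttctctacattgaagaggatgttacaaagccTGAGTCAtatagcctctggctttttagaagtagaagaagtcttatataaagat
The motif began 35 bases before the start in Mmp13, 63 in Mmp10, 46 in Mmp3, 73 in Mmp1a and 93 in Mmp1b.

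Mmp13, a collagenase of migrating keratinocytes and stroma, had 120.3 and 148 CPM in 6 h wounds, against 2.94 and 0.241 CPM in unwounded skin (change 6.48 ± 1.31, adjusted p = 0.00398). Mmp10, stromelysin-2 of the migrating wound tip, had 24.7 and 71.6 CPM in 6 h wounds, against 1.63 and 0.138 CPM in unwounded skin (change 5.86 ± 1.39, adjusted p = 0.00897). Mmp1a and Mmp1b, the rodent counterparts of interstitial collagenase, are near copies of each other whose reads may be exchanged. Mmp1b had 9.68 and 6.67 CPM in 6 h wounds, against 0.0905 and 0 CPM in unwounded skin (adjusted p = 9.34e-05). Mmp1a had 3.45 and 3.95 CPM in 6 h wounds, against 0.0905 and 0 CPM in unwounded skin (adjusted p = 0.00022). The groups did not overlap for any of these 4 genes, which was a condition for giving a direction and is not a result.

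Mmp3 (stromelysin-1) had 249 and 373 CPM in 6 h wounds, against 46 and 13.6 CPM in unwounded skin, and Plaur, the receptor that focuses urokinase at the cell front, had 27.8 and 46.6 CPM in 6 h wounds, against 6.11 and 1.1 CPM in unwounded skin. Both passed with all libraries, at 3.39 ± 0.84 and 3.39 ± 0.88. Without unwounded library 2 the adjusted p was 0.0533 for Mmp3 and 0.0575 for Plaur, and without wound library 2 it was 0.063 for Plaur. The tissue inhibitor of metalloproteinases Timp3 fell, with 4.96 and 4.54 CPM in 6 h wounds, against 42.2 and 54.6 CPM in unwounded skin (change -3.35 ± 0.29, adjusted p = 1.02e-05). Its relatives differed in direction. In the fits that left out 1 compared library the log2 change was 2.2 to 9.08 for Timp1 and -1.63 to -0.99 for Timp2. Fibroblasts are another source of metalloproteinases. Of 17 fibroblast markers tested 1 rose and 3 fell, none of them in every fit without a library, and their summed level was 560 and 400 CPM in 6 h wounds, against 542 and 241 CPM in unwounded skin. Postn, which is also made by basal keratinocytes and follicle cells, made up most of that sum in 6 h wounds (486 and 334 CPM in 6 h wounds, against 200.3 and 110.0 CPM in unwounded skin), while the collagen gene Col1a1 had 1.6 and 0.197 CPM in 6 h wounds, against 50.6 and 0.0688 CPM in unwounded skin. Unwounded library 1 thus held the most fibroblast collagen RNA, and the part of such cells in the protease values was not tested.

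Growth factor genes and the brakes of their pathway changed unevenly. Among 9 ligands of the EGF receptor family 2 rose and 1 fell (median -0.22), with 2 fallers without unwounded library 1. Tgfa, which drives keratinocyte migration and growth, had 331 and 425 CPM in 6 h wounds, against 80.3 and 25.1 CPM in unwounded skin (change 2.85 ± 0.63, adjusted p = 0.00566). Nrg1, a ligand of the related ErbB receptors, had 51.6 and 90.4 CPM in 6 h wounds, against 11 and 3.03 CPM in unwounded skin (change 3.35 ± 0.76, adjusted p = 0.00634). Nrg4 fell, with 1.47 and 1.42 CPM in 6 h wounds, against 9.51 and 5.16 CPM in unwounded skin (change -2.33 ± 0.50, adjusted p = 0.00262). Hbegf, another EGF receptor ligand of wounds, had 182 and 267 CPM in 6 h wounds, against 260.4 and 264 CPM in unwounded skin, overlapping values with no call (-0.22 ± 0.43, adjusted p = 0.719). Of 13 growth factor receptors none rose and 6 fell (median -0.03), or 1 rose without wound library 1, with the neurotrophin receptor Ntrk2 at 8.89 and 6.12 CPM in 6 h wounds, against 49.8 and 45.1 CPM in unwounded skin (change -2.65 ± 0.35, adjusted p = 0.000135).

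Among 18 genes of MAP kinase feedback 3 rose and 6 fell (median -0.52), with 1 riser without unwounded library 2 and 2 fallers without wound library 1. Spred3, an inhibitor of Ras signalling, had 18.3 and 17.7 CPM in 6 h wounds, against 0.543 and 0.723 CPM in unwounded skin (change 4.81 ± 0.39, adjusted p = 8.9e-06). The phosphatase gene Dusp1 had 592 and 1159 CPM in 6 h wounds, against 2428 and 2467 CPM in unwounded skin and a change of -1.48 ± 0.48 that did not pass without unwounded library 1 or 2 or wound library 1. Inhibitors of the same pathway thus differed in direction with all libraries in the fit.

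Junction and integrin genes, which hold cells to each other and to the matrix, passed about as often as all genes (38.7%). Of 23 junction genes 6 rose and 3 fell (median 0.20). Gjb2, the gap junction protein known for hyperproliferative epidermis, had 355 and 469 CPM in 6 h wounds, against 4.71 and 4.51 CPM in unwounded skin (change 6.48 ± 0.99, adjusted p = 0.000722). Its neighbour in the connexin family Gjb6 had 18.4 and 22.4 CPM in 6 h wounds, against 2.85 and 1.86 CPM in unwounded skin (change 3.12 ± 0.46, adjusted p = 0.000334). The desmosomal cadherin Dsg3 had 1134 and 1208 CPM in 6 h wounds, against 473 and 385 CPM in unwounded skin (change 1.45 ± 0.27, adjusted p = 0.0011). Among 13 integrins 3 rose and 1 fell (median 0.16), and 1 rose without unwounded library 2 or wound library 2. Itga5, which pairs with Itgb1 to bind fibronectin, had 37.7 and 42.3 CPM in 6 h wounds, against 10.8 and 8.88 CPM in unwounded skin (change 2.02 ± 0.43, adjusted p = 0.00366). Itgb5, a chain of a vitronectin receptor, had 20.1 and 15.4 CPM in 6 h wounds, against 74.3 and 102 CPM in unwounded skin (change -2.31 ± 0.29, adjusted p = 0.000101).

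Of 36 actin and migration genes 13 rose and 5 fell (median 0.30). Risers numbered 7 without unwounded library 2 and 6 without wound library 2, and fallers 3 without unwounded library 1, 1 without wound library 1 and 3 without wound library 2. Tpm2, an actin-binding tropomyosin, had 288 and 312 CPM in 6 h wounds, against 75.7 and 26.5 CPM in unwounded skin (change 2.56 ± 0.57, adjusted p = 0.00535). Rnd1 and Rnd3, related GTPase genes that loosen actin stress fibres, diverged. Rnd1 had 21.9 and 32.4 CPM in 6 h wounds, against 4.93 and 3.27 CPM in unwounded skin (change 2.73 ± 0.35, adjusted p = 8.85e-05). Rnd3 had 136 and 174 CPM in 6 h wounds, against 519.5 and 680.1 CPM in unwounded skin (change -1.95 ± 0.33, adjusted p = 0.000688). Of 15 targets of SRF and YAP 3 rose and 5 fell (median -0.17), and none of these calls held in every fit without a library. The counts were 0 risers without unwounded library 1 or 2 or wound library 2, and 2, 0 and 3 fallers without unwounded library 1, wound library 1 and wound library 2. Of 19 genes of basement membrane and hemidesmosomes 1 rose and 7 fell (median -0.53), with 2 fallers without wound library 2 and no riser without unwounded library 2 or wound library 2. Frem2, which links epidermis to the basement membrane, had 9.13 and 3.91 CPM in 6 h wounds, against 72.2 and 125 CPM in unwounded skin (change -3.88 ± 0.56, adjusted p = 0.000435). The anchoring collagen Col7a1 had 183 and 122 CPM in 6 h wounds, against 507 and 453 CPM in unwounded skin (change -1.65 ± 0.29, adjusted p = 0.000787).

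The machinery that makes and recycles protein had the largest shares of risers among the 43 lists. All 36 tested ribosome biogenesis genes rose, between 0.80 and 2.55 on the log2 scale with a median of 1.53, and 35 of them did so in every fit without a library. The share of all genes that rose was 20.1%. Utp4, a processing factor of the small ribosomal subunit, had 204 and 303 CPM in 6 h wounds, against 48.7 and 38.1 CPM in unwounded skin (change 2.55 ± 0.28, adjusted p = 4.32e-05). Rrp1b, a nucleolar protein, had 124 and 146 CPM in 6 h wounds, against 28.4 and 26.2 CPM in unwounded skin (change 2.31 ± 0.21, adjusted p = 1.26e-05). Rrs1, a factor of the large subunit, had 135 and 162 CPM in 6 h wounds, against 32.1 and 28.8 CPM in unwounded skin (change 2.29 ± 0.20, adjusted p = 1.02e-05). The nucleolar protein nucleolin, Ncl, was one of the 8 genes with the greatest gain in CPM, with 2340.0 and 2658 CPM in 6 h wounds, against 1048 and 722 CPM in unwounded skin (change 1.50 ± 0.26, adjusted p = 0.000697).

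Among 31 proteasome genes 29 rose and none fell (median 0.80), and 22 rose in every fit without a library. Psma5, a subunit of the core, had 37.4 and 40.8 CPM in 6 h wounds, against 16.2 and 14.6 CPM in unwounded skin (change 1.34 ± 0.13, adjusted p = 1.74e-05). Psmd6 of the regulatory lid had 189 and 191 CPM in 6 h wounds, against 84.4 and 73.4 CPM in unwounded skin (change 1.27 ± 0.12, adjusted p = 1.7e-05). Psmc2, an ATPase of the base, had 203 and 224 CPM in 6 h wounds, against 80.7 and 97.6 CPM in unwounded skin (change 1.26 ± 0.13, adjusted p = 2.45e-05). These changes were moderate in size, and replicates lay close together. Psmb1 (0.20) and Psmd8 (0.17) were the members that did not pass.

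**Figure D3:**
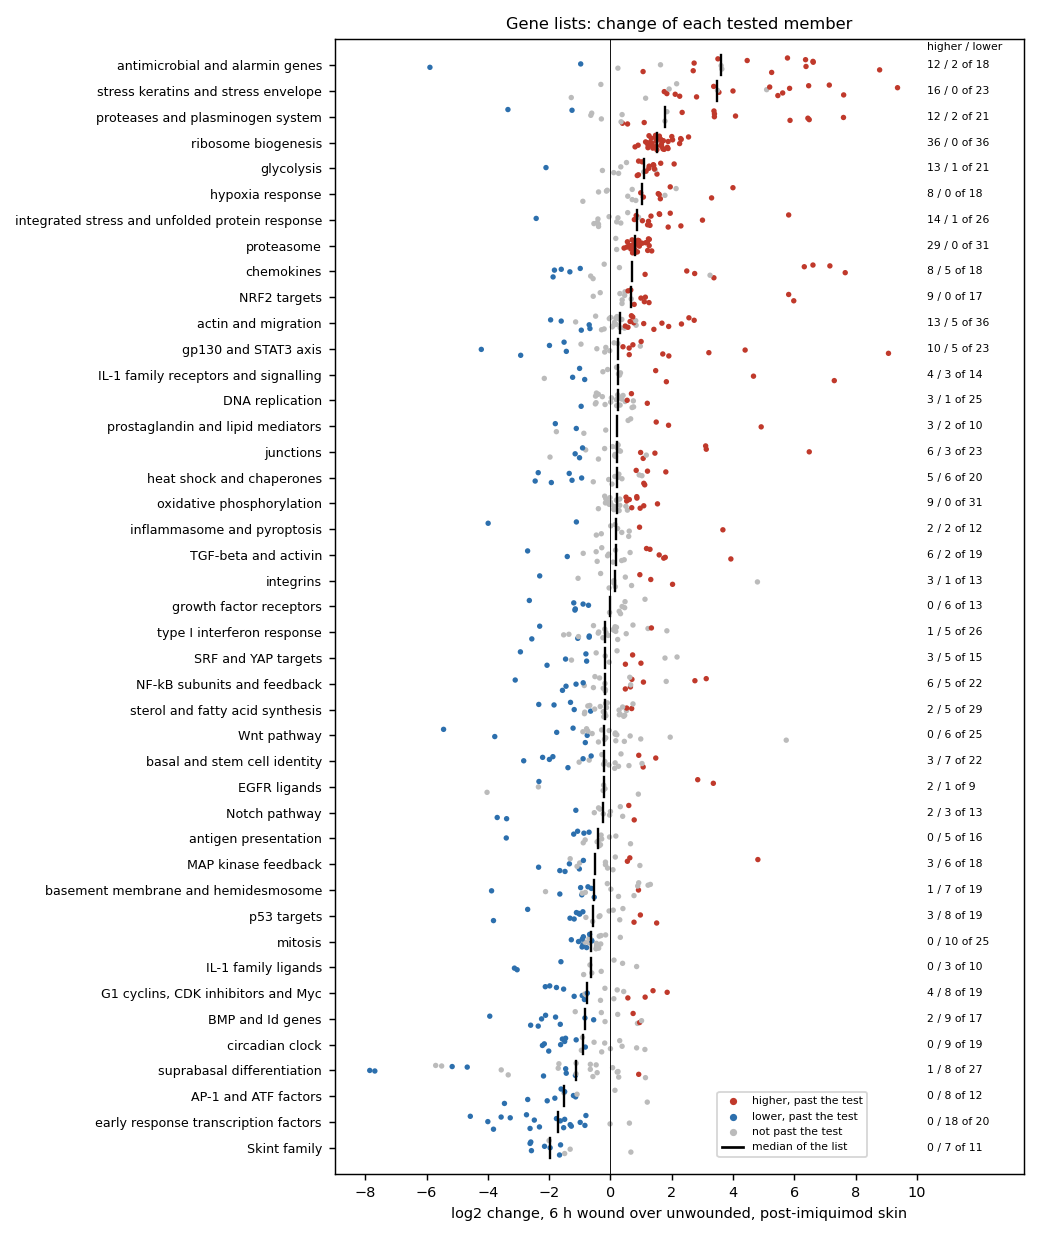
Log2 change (6 h wounds over unwounded skin) of each tested member of 43 pathway lists, ordered by the median of the list (black bar). Red members rose, blue members fell and grey members did not pass the test, with the counts at the right. Ribosome biogenesis (36 of 36 higher) and the proteasome (29 of 31) form narrow clouds, whereas stress keratins and antimicrobial genes spread over many doublings.

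Energy and stress metabolism rose in part. Of 21 glycolysis genes 13 rose and 1 fell (median 1.09), but 4 rose without unwounded library 2 and 2 without wound library 2. Pkm, which makes pyruvate, had 1333 and 1829 CPM in 6 h wounds, against 765 and 436 CPM in unwounded skin (change 1.40 ± 0.31, adjusted p = 0.0032), and the phosphofructokinase of muscle type, Pfkm, fell, with 8.03 and 7.07 CPM in 6 h wounds, against 32.8 and 32.3 CPM in unwounded skin (change -2.10 ± 0.26, adjusted p = 6.54e-05). Of 18 hypoxia response genes 8 rose and none fell (median 1.03), with 5 risers without unwounded library 2 or wound library 2 and 1 faller without unwounded library 2. Hif1a, the oxygen-regulated transcription factor, had 1052 and 1232 CPM in 6 h wounds, against 406 and 370.0 CPM in unwounded skin (change 1.56 ± 0.28, adjusted p = 0.000804). Its target Car9, a carbonic anhydrase, had 21.1 and 46.9 CPM in 6 h wounds, against 5.43 and 1.58 CPM in unwounded skin (change 3.30 ± 0.72, adjusted p = 0.00484).

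The integrated stress and unfolded protein response gave 14 risers and 1 faller among 26 genes (median 0.88), with 7 risers without unwounded library 2 or wound library 2, and 3 fallers without unwounded library 2. Slc7a11, the cystine importer that feeds glutathione synthesis, had 39.8 and 46.6 CPM in 6 h wounds, against 1.22 and 0.379 CPM in unwounded skin (change 5.81 ± 0.58, adjusted p = 3.61e-05). Mthfd2, a mitochondrial enzyme of one-carbon metabolism, had 37.6 and 60 CPM in 6 h wounds, against 8.78 and 3.51 CPM in unwounded skin (change 3.00 ± 0.40, adjusted p = 0.000157). The transcription factor Atf5 had 137 and 176 CPM in 6 h wounds, against 38.3 and 25.3 CPM in unwounded skin (change 2.30 ± 0.23, adjusted p = 2.07e-05). The faller was Ppp1r15a, which reverses the block on translation, with 61.6 and 149.7 CPM in 6 h wounds, against 599.8 and 532 CPM in unwounded skin (change -2.42 ± 0.45, adjusted p = 0.00154).

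Of 17 targets of NRF2, the regulator of antioxidant defence, 9 rose and none fell (median 0.66), with 1 faller without unwounded library 2. Gsta4, which detoxifies products of lipid peroxidation, had 299 and 291 CPM in 6 h wounds, against 8.51 and 1.1 CPM in unwounded skin (change 5.98 ± 1.28, adjusted p = 0.00528). Gclm of glutathione synthesis had 32.7 and 34.4 CPM in 6 h wounds, against 13.6 and 14.4 CPM in unwounded skin (change 1.26 ± 0.14, adjusted p = 4e-05). Of 31 oxidative phosphorylation genes 9 rose and none fell (median 0.20), and 5, 5 and 4 rose without unwounded library 2, wound library 1 and wound library 2, with 1 faller without unwounded library 2. Ndufa4, a subunit of the respiratory chain, had 229.6 and 242 CPM in 6 h wounds, against 90 and 73.2 CPM in unwounded skin (change 1.53 ± 0.13, adjusted p = 1.02e-05). Mitochondrially encoded transcripts, a sign of RNA quality as well as of metabolism, took 1.45% and 1.21% of counts in 6 h wounds, against 2.48% and 1.53% in unwounded skin, and none of the 9 tested passed.

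No mitosis gene passed as higher beside this growth machinery. Of 25 mitosis genes none rose and 10 fell (median -0.62), with 4, 4 and 3 fallers without unwounded library 1, wound library 1 and wound library 2. Kif23, a motor of cytokinesis, had 22.1 and 21.4 CPM in 6 h wounds, against 54.6 and 50.8 CPM in unwounded skin (change -1.28 ± 0.22, adjusted p = 0.000691). Foxm1, the transcription factor of mitotic genes, had 14.1 and 14.8 CPM in 6 h wounds, against 27.2 and 32.3 CPM in unwounded skin (change -1.04 ± 0.25, adjusted p = 0.00549). Mki67, a marker of cycling cells, had 105 and 87.4 CPM in 6 h wounds, against 189.5 and 176 CPM in unwounded skin (change -0.92 ± 0.27, adjusted p = 0.0162), with adjusted p values of 0.0618 without unwounded library 1 and 0.11 without wound library 2. Of 25 DNA replication genes 3 rose and 1 fell (median 0.23), and 7 rose without unwounded library 1 but 1 without unwounded library 2, while the faller was lost without unwounded library 1 or either wound library. Gins1, part of the replicative helicase, had 12.7 and 10.7 CPM in 6 h wounds, against 4.71 and 5.51 CPM in unwounded skin (change 1.20 ± 0.22, adjusted p = 0.000986).

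Among 19 G1 cyclins, CDK inhibitors and Myc genes 4 rose and 8 fell (median -0.76), and 5, 4 and 4 fell without unwounded library 1, wound library 1 and wound library 2. Myc, an activator of ribosome and growth genes, had 231 and 316 CPM in 6 h wounds, against 1097 and 759 CPM in unwounded skin. It fell by 1.76 on the log2 scale (SE 0.25, adjusted p = 0.00018) while every ribosome biogenesis gene rose. E2f7, a repressor of the E2F family, had 38.3 and 55.8 CPM in 6 h wounds, against 12 and 14.1 CPM in unwounded skin (change 1.85 ± 0.38, adjusted p = 0.00279).

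Early response transcription factors had the largest share of fallers among the 43 lists. Of 20 tested genes none rose and 18 fell, with a median of -1.70, and 16 fell in every fit without a library. The share of all genes that fell was 18.6%. Nr4a3, a nuclear receptor without a classical ligand, had 3.32 and 13.3 CPM in 6 h wounds, against 146 and 236 CPM in unwounded skin (change -4.57 ± 0.92, adjusted p = 0.00378). It lies on chromosome 4, 48045078 to 48086447. Its relative Nr4a1, one of the 8 genes with the greatest loss in CPM, had 151 and 460.0 CPM in 6 h wounds, against 2603 and 3287 CPM in unwounded skin (change -3.27 ± 0.60, adjusted p = 0.00151). Klf2, a transcription factor of quiescence, had 5.97 and 10.7 CPM in 6 h wounds, against 107 and 156 CPM in unwounded skin (change -4.00 ± 0.54, adjusted p = 0.000278). Wound library 2 lay above wound library 1 in each of these, yet far below both unwounded libraries.

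The AP-1 genes followed the same pattern. Of 12 AP-1 and ATF factors none rose and 8 fell (median -1.51). Fos had 1312 and 2011 CPM in 6 h wounds, against 7149 and 6744 CPM in unwounded skin (change -2.06 ± 0.33, adjusted p = 0.000372). Fosb had 867 and 1122 CPM in 6 h wounds, against 6345 and 6579 CPM in unwounded skin (change -2.70 ± 0.33, adjusted p = 6.29e-05). Atf3, a stress-induced repressor, had 409 and 903 CPM in 6 h wounds, against 7484 and 6939.9 CPM in unwounded skin (change -3.46 ± 0.53, adjusted p = 0.000372). All 3 genes were highly abundant in unwounded skin and were lower in both libraries 6 h after the wound. Cells of both groups were sorted before RNA was measured. The part of tissue handling and sorting in the levels of early response genes was not tested. Fosl1, the AP-1 member of migrating keratinocytes, had 149 and 282 CPM in 6 h wounds, against 767 and 749 CPM in unwounded skin (change -1.81 ± 0.52, adjusted p = 0.0191), and its adjusted p was 0.118 without wound library 1. Zfp36, which destabilises cytokine mRNA, had 420.0 and 783 CPM in 6 h wounds, against 4104 and 3932 CPM in unwounded skin (change -2.74 ± 0.36, adjusted p = 0.000101). Egr1 had 845 and 1655 CPM in 6 h wounds, against 3547 and 3662 CPM in unwounded skin (change -1.53 ± 0.35, adjusted p = 0.00447).

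Promoters of the genes with the largest fall are shown because the cyclic AMP response element TGACGTCA is known from genes that stress and hormone signals induce quickly. It was found in 3 of the 11 such genes with a promoter entry (27.3%), against 1.62% of all promoters and 2.64% of those of tested genes. Among all genes that fell it was in 2.34%, and among all that rose in 2.66%, both near the share of tested genes. In the list of early response transcription factors it was in 1 of 14 promoters. In the list of AP-1 and ATF factors it was in 0 of 11. The capitals mark it in the windows below. The sequences come from RefSeq, GRCm38.p6, 5′ to 3′ on the strand of the gene, and were chosen after the matches were seen.
Btg2, chr1:134079268-134079367, minus strand: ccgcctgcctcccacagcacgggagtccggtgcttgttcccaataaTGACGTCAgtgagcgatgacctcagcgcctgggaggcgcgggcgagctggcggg
Ch25h, chr19:34475156-34475255, minus strand: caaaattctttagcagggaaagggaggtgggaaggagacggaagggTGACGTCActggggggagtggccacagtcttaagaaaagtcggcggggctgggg
Mlf1, chr3:67373997-67374096, plus strand: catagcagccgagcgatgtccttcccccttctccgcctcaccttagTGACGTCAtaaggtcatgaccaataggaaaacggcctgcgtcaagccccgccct
The motif began 166, 61 and 54 bases before the start in Btg2, Ch25h and Mlf1. TGANTCA was in 2 of 11 promoters of the genes with the largest rise and in 1 of these 11. The other motifs searched are given in the same order, with the share of all promoters and then that of tested genes. The NF-κB motif was in 7 and 6 (45.4% and 61.2%), and GAANNTTC in 1 and 0 (6.78% and 5%). CACGTG was in 0 and 0 (6.05% and 8.06%) and TATAAA in 3 and 2 (13% and 7.01%). The serum response element was in 0 and 0 (1.4% and 1.21%).

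Btg2, an inhibitor of proliferation induced by stress, had 85.6 and 219 CPM in 6 h wounds, against 1924 and 2356 CPM in unwounded skin (change -3.82 ± 0.43, adjusted p = 5.15e-05). Ch25h, which makes an oxysterol that guides immune cells, had 2.81 and 2.13 CPM in 6 h wounds, against 29.7 and 32.6 CPM in unwounded skin (change -3.64 ± 0.59, adjusted p = 0.000759). Mlf1 had 1.37 and 1.78 CPM in 6 h wounds, against 15 and 21.3 CPM in unwounded skin (change -3.55 ± 0.42, adjusted p = 5.18e-05). Gem, a small GTPase that acts on the cytoskeleton, had 7.39 and 11.2 CPM in 6 h wounds, against 149 and 119 CPM in unwounded skin (change -3.87 ± 0.64, adjusted p = 0.00111). The fitted fall was more than an order of magnitude for each of these 4 genes.

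Several genes of stem cell identity fell, while the main basal keratins did not pass the test. Of 22 basal and stem cell identity genes 3 rose and 7 fell (median -0.21). Krt15, a keratin of resting basal cells and of the hair follicle bulge, had 1610.0 and 1064 CPM in 6 h wounds, against 10288 and 8732 CPM in unwounded skin (change -2.83 ± 0.43, adjusted p = 0.000292). It showed the greatest loss of CPM among the named genes that fell, and lies on chromosome 11, 100131759 to 100135949. Lgr6, a receptor of R-spondins in skin stem cells, had 81.1 and 47.4 CPM in 6 h wounds, against 227 and 286 CPM in unwounded skin (change -1.99 ± 0.32, adjusted p = 0.000565). The follicle stem cell factor Sox9 had 14.2 and 19.7 CPM in 6 h wounds, against 78.5 and 46.1 CPM in unwounded skin (change -1.88 ± 0.35, adjusted p = 0.00153). The gene for Sca1, Ly6a, by whose product the cells were sorted, rose (825 and 769 CPM in 6 h wounds, against 366 and 207 CPM in unwounded skin, 1.48 ± 0.31).

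Krt5 had 16341 and 14882 CPM in 6 h wounds, against 27650.1 and 22894 CPM in unwounded skin (-0.69 ± 0.33, adjusted p = 0.116) and did not pass. Krt14 had 16242 and 17132 CPM in 6 h wounds, against 23305 and 14628 CPM in unwounded skin, with overlapping groups (-0.18 ± 0.37, adjusted p = 0.728), and its sign turned without unwounded library 1, to 0.15. The summed level of 9 tested markers of the bulge and outer root sheath was 2180 and 1490 CPM in 6 h wounds, against 10700 and 9000 CPM in unwounded skin, of which Krt15 is the greater part. Of these markers 1 rose and 3 fell (Krt15, Nfatc1 and Ctsh), and the bulge marker Cd34, excluded by the sort, had 0.512 and 0.395 CPM in 6 h wounds, against 1.95 and 0.585 CPM in unwounded skin. The sum of 13 infundibulum and sebaceous gland markers was 3090 and 4870 CPM in 6 h wounds, against 1290 and 1470 CPM in unwounded skin, most of it Krt17, the only one that rose. In such bulk samples fewer cells of a type and less RNA per cell cannot be told apart, and the part of follicle cells in these changes was not tested.

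BMP signalling keeps skin stem cells quiescent, and the Id genes are its direct targets. Of 17 genes of this list 2 rose and 9 fell (median -0.83). Id3 had 18.9 and 26.7 CPM in 6 h wounds, against 371 and 324 CPM in unwounded skin (change -3.94 ± 0.31, adjusted p = 1.02e-05), with a tight spread in both groups. The ligand Bmp2 had 11.1 and 12.3 CPM in 6 h wounds, against 86.8 and 55 CPM in unwounded skin (change -2.60 ± 0.57, adjusted p = 0.00502). Bambi, a decoy receptor and feedback target, had 1.24 and 1.97 CPM in 6 h wounds, against 11 and 5.3 CPM in unwounded skin (change -2.36 ± 0.51, adjusted p = 0.00276). Of 13 Notch pathway genes 2 rose and 3 fell (median -0.23), a share close to the 38.7% of all genes that passed. The Notch target Hes1 had 47.6 and 60.4 CPM in 6 h wounds, against 686 and 444 CPM in unwounded skin (change -3.39 ± 0.24, adjusted p = 5.8e-06). Hey1, another Notch target, had 0.115 and 0.079 CPM in 6 h wounds, against 1.81 and 0.929 CPM in unwounded skin (change -3.69 ± 0.65, adjusted p = 0.000713). The receptor Notch1 had 185 and 154 CPM in 6 h wounds, against 319.9 and 423 CPM in unwounded skin (change -1.13 ± 0.22, adjusted p = 0.00157). The 2 risers of that list, Dll1 and Rbpj, were both lost without unwounded library 2 or wound library 2, and 1 was lost without wound library 1.

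Of 25 Wnt pathway genes none rose and 6 fell (median -0.20), and 3 fell without unwounded library 2. The share of all genes that fell was 18.6%, so the count of fallers is near that of genes at large. Znrf3, which removes Wnt receptors from the cell surface, had 34.6 and 30.5 CPM in 6 h wounds, against 65.5 and 86.3 CPM in unwounded skin (change -1.22 ± 0.15, adjusted p = 6.47e-05). The ligand Wnt7a had 0.0769 and 0 CPM in 6 h wounds, against 1.99 and 2.89 CPM in unwounded skin (change -5.44 ± 0.80, adjusted p = 0.00021), or -9.64 without wound library 1, where library 2 held no read. Rspo3, which strengthens Wnt signals through receptors such as Lgr6, had 1.2 and 0.671 CPM in 6 h wounds, against 15 and 22.8 CPM in unwounded skin (change -4.27 ± 0.71, adjusted p = 0.000841).

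Of 19 genes of TGF-β and activin signalling 6 rose and 2 fell (median 0.17). Inhba, which encodes the activin chain known from wound repair, had 4.07 and 3.16 CPM in 6 h wounds, against 0.272 and 0.206 CPM in unwounded skin (change 3.93 ± 0.70, adjusted p = 0.00087). Inhbb had 25.3 and 31.4 CPM in 6 h wounds, against 8.28 and 8.67 CPM in unwounded skin (change 1.74 ± 0.40, adjusted p = 0.00519). The ligand Tgfb3 fell, with 1.01 and 1.11 CPM in 6 h wounds, against 6.07 and 7.67 CPM in unwounded skin (change -2.70 ± 0.39, adjusted p = 0.000194). Activin genes and a TGF-β ligand thus went in opposite directions.

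Genes of the suprabasal layers were lower mainly through 1 library. Of 27 tested genes 1 rose and 8 fell (median -1.14), but none fell without unwounded library 2 or wound library 2, 2 fell without wound library 1, and 13 fell without unwounded library 1. The riser was lost without unwounded library 1 or wound library 2. The filaggrin-like Flg2, of the granular layer, had 0.538 and 0.079 CPM in 6 h wounds, against 1.45 and 177 CPM in unwounded skin, and loricrin, Lor, had 5.64 and 5.49 CPM in 6 h wounds, against 15.6 and 564 CPM in unwounded skin. Unwounded library 2 alone held these late differentiation transcripts at a high level. Krt10, the keratin of the first suprabasal cells, had 3685 and 2578 CPM in 6 h wounds, against 8226 and 9023 CPM in unwounded skin, separate groups with a change of -1.46 ± 0.51 (adjusted p = 0.0395) that lost its call in each fit without a library (adjusted p up to 0.191).

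Some of the genes that epidermis uses to speak to resident lymphocytes and to follow the time of day also fell. Of 11 Skint genes, whose products shape the γδ T cells of mouse epidermis, none rose and 7 fell (median -1.97), with 4 without unwounded library 2. Skint7 had 23.7 and 13.2 CPM in 6 h wounds, against 106 and 123 CPM in unwounded skin (change -2.62 ± 0.30, adjusted p = 5.59e-05), with reads between members of this family open to exchange. Of 19 circadian clock genes none rose, 9 fell and 10 did not pass (median -0.91). Clock and Per2 changed sign between the fits that left out 1 compared library (-0.16 to 0.11 and -0.11 to 0.71). Bhlhe40 had 155 and 245 CPM in 6 h wounds, against 775 and 837 CPM in unwounded skin (change -2.01 ± 0.29, adjusted p = 0.000209). Npas2 had 6.7 and 9.56 CPM in 6 h wounds, against 27.9 and 44.1 CPM in unwounded skin (change -2.16 ± 0.35, adjusted p = 0.000528). The sources used here do not give the hour of harvest, and for these genes it cannot be told apart from the wound.

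Antiviral genes fell about as often as all genes (18.6%). Of 26 type I interferon genes 1 rose and 5 fell (median -0.17), with 2 fallers without unwounded library 2 and 1 without wound library 2. Usp18, which damps interferon signalling, had 5.11 and 2.72 CPM in 6 h wounds, against 23.7 and 15.9 CPM in unwounded skin (change -2.31 ± 0.39, adjusted p = 0.000606). Of 16 antigen presentation genes none rose and 5 fell (median -0.42). Irf1, a transcription factor of interferon genes, had 26.2 and 25.9 CPM in 6 h wounds, against 319 and 229.7 CPM in unwounded skin (change -3.40 ± 0.22, adjusted p = 5.8e-06).

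Some of the genes with the greatest gains and losses, in CPM or on the log2 scale, were outside these lists. Stom, a membrane protein of lipid rafts, had 971 and 1099.6 CPM in 6 h wounds, against 136 and 120.1 CPM in unwounded skin (change 3.02 ± 0.26, adjusted p = 1.02e-05). Plbd1, whose product carries a phospholipase B domain, had 951 and 1234 CPM in 6 h wounds, against 322 and 259 CPM in unwounded skin (change 1.91 ± 0.20, adjusted p = 2.54e-05). Urah, an enzyme of urate breakdown, had 1006 and 1206 CPM in 6 h wounds, against 326 and 318 CPM in unwounded skin (change 1.78 ± 0.19, adjusted p = 2.45e-05). Lgi2, a secreted leucine-rich protein, had 29.5 and 39.1 CPM in 6 h wounds, against 0.724 and 0.654 CPM in unwounded skin (change 5.64 ± 0.56, adjusted p = 3.33e-05). Sh2d5, an adaptor with an SH2 domain, had 303 and 359.7 CPM in 6 h wounds, against 9.37 and 0.206 CPM in unwounded skin (change 6.16 ± 1.31, adjusted p = 0.00548), or 10.59 without unwounded library 1. Replicates of 6 h wounds were close to each other for each of these genes.

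Ahnak, a giant scaffold protein, had 621 and 599 CPM in 6 h wounds, against 3077 and 2911 CPM in unwounded skin (change -2.30 ± 0.31, adjusted p = 0.000118). Sema3d, a secreted guidance factor, had 28.4 and 14.8 CPM in 6 h wounds, against 260.2 and 358 CPM in unwounded skin (change -3.83 ± 0.74, adjusted p = 0.00268). Csgalnact1, which starts chondroitin sulfate chains, had 1.97 and 1.54 CPM in 6 h wounds, against 24 and 32.8 CPM in unwounded skin (change -4.00 ± 0.39, adjusted p = 1.68e-05). Pik3c2g, a lipid kinase, had 2.36 and 1.22 CPM in 6 h wounds, against 25.1 and 23.1 CPM in unwounded skin (change -3.71 ± 0.35, adjusted p = 1.29e-05). Syne1, a link between nucleus and cytoskeleton, had 5.19 and 2.65 CPM in 6 h wounds, against 44.1 and 46.5 CPM in unwounded skin (change -3.50 ± 0.42, adjusted p = 8.77e-05). All were lower in both wound libraries than in either unwounded one, as the rule for naming them required. The nuclear RNA Malat1, often read as a sign of how much nuclear RNA a library holds, also fell, with 203 and 183 CPM in 6 h wounds, against 822 and 866 CPM in unwounded skin (-2.13 ± 0.23), and the part of this in other falls was not tested.

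The same wound in skin treated with the control cream was compared to ask whether the response depended on the earlier imiquimod. Control skin used 4 other libraries in the same fit, and 6003 genes passed there (34.7%). Of the 3485 genes that rose in post-imiquimod skin 2473 (71%) also rose in control skin, which is 79.3% of the 3119 that rose there. Of the 3210 that fell 2213 (68.9%) also fell in control skin, 76.7% of the 2884. Genes called in opposite directions numbered 2 (Pinlyp and Msmo1) and 5 (Lama5, Col5a1, Col5a2, Bgn and 4930516B21Rik), each lost in at least 1 fit without a library. The difference between the wound effects, tested directly for each gene, passed for none of 17299 genes by edgeR, with 1057 at an unadjusted p under 0.05. DESeq2 called 14 genes more positive and 13 more negative in post-imiquimod skin. The latter include the Y-linked gene Uty (-15.43, DESeq2 adjusted p = 0.0094), and unwounded library 1 of each skin was male.

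These DESeq2 calls include 4 genes of sterol synthesis and 2 collagens, named here after their values were seen and with no test of either group. Cyp51, which removes a methyl group from lanosterol, differed by 1.68 on the log2 scale (DESeq2 adjusted p = 0.000333). It had 94.9 and 102 CPM in 6 h wounds, against 109 and 110.0 CPM in unwounded skin after imiquimod, and 52.4 and 71.6 CPM against 178 and 263 CPM after the control cream. The sterol genes Acat2 (1.61), Sqle (1.96) and Msmo1 (1.27) were also called. Col5a1 differed by -5.25 (DESeq2 adjusted p = 0.00271). It had 0.115 and 0.355 CPM in 6 h wounds, against 1.77 and 0.551 CPM in unwounded skin after imiquimod, and 0.879 and 1.76 CPM against 0.0473 and 0.295 CPM after the control cream. Unwounded post-imiquimod library 1, which held most Col1a1, was also the highest of the 4 in Col5a1, and the part of fibroblasts in this was not tested. With edgeR on the filtered genes the adjusted p was 0.527 for Cyp51 and 0.661 for Col5a1, and neither these nor Acat2, Sqle and Msmo1 passed. With no filter on low counts edgeR called all 5, at 2.38e-07 for Cyp51 and 1.82e-08 for Col5a1. It also called the collagen Col1a2, at an adjusted p of 2.74e-103. In the filtered fits, that gene's wound change in post-imiquimod skin was 1.89 without unwounded library 1 and -6.01 without unwounded library 2. The p values without the filter are therefore not relied on here or below.

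Serpina3n changed by 7.76 ± 0.49 in post-imiquimod skin and 10.56 ± 0.60 in control skin, Krt6b by 7.61 ± 1.64 and 6.59 ± 1.58, Fos by -2.06 ± 0.33 and -1.50 ± 0.32, and Id3 by -3.94 ± 0.31 and -3.23 ± 0.30. S100a8 changed by 6.61 ± 1.22 in post-imiquimod skin and by 2.35 ± 1.07 in control skin, where it did not pass (adjusted p = 0.12). In control skin its levels were 6.41 and 24.3 CPM in 6 h wounds and 5.06 and 1.15 CPM unwounded. The difference of 4.26 ± 1.50 had an adjusted p of 0.738, and for S100a9 it was 4.12 ± 1.60 (0.771). Both differences passed with a block by replicate number within each time point (adjusted p = 0.00538 for both). They also passed in edgeR with no filter on low counts (adjusted p = 1.11e-37 and 8.81e-35), values that are not relied on, for the reason given with Col1a2.

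**Figure D4:**
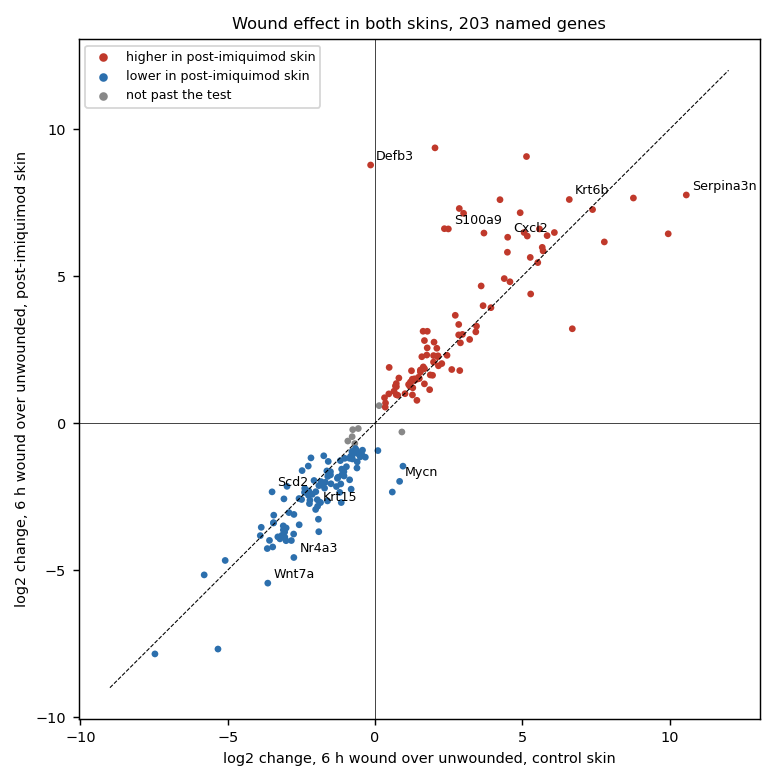
Log2 change of 203 named genes (6 h wounds over unwounded skin), in post-imiquimod skin on the y axis and in control skin on the x axis, with the line of equal change. Colours give the call in post-imiquimod skin (red rose, blue fell, grey did not pass). Krt6b, Fos and Id3 lie near the line, S100a9 lies above it (6.60 against 2.49), and genes with no unwounded read, such as Defb3, have changes that depend on the prior count.

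Post-imiquimod skin 12 h after the wound gives a later point for the same genes, as values without a test of its own. Of the 95 named genes that rose at 6 h, 93 stood above both unwounded libraries in both 12 h libraries, and of the 101 that fell 95 stood below. All these genes had been called against the same unwounded libraries, so the counts are in part built in. The share over all genes tested was not computed, and no conclusion on how long the response lasts is drawn from them. Among the risers 32 had both 12 h values above both 6 h values and 24 had both below. Mmp13 (unwounded 2.94 and 0.241, at 6 h 120.3 and 148, at 12 h 415 and 882 CPM), Gjb2 (4.71 and 4.51, 355 and 469, 725 and 985) and Lcn2 (1.18 and 0.138, 41.1 and 60.5, 148 and 112) were higher at 12 h than at 6 h. Cxcl2 (0.407 and 0, 4.21 and 25.9, 2.25 and 3.35), Slc7a11 (1.22 and 0.379, 39.8 and 46.6, 27.7 and 33.8) and Rrs1 (32.1 and 28.8, 135 and 162, 94.8 and 112) were lower at 12 h than at 6 h. Among the fallers, Nr4a1 (2603 and 3287, 151 and 460.0, 84.8 and 119.6) and Atf3 (7484 and 6939.9, 409 and 903, 218 and 332) were lower still at 12 h, whereas Id3 (371 and 324, 18.9 and 26.7, 17.4 and 18.1) and Hes1 (686 and 444, 47.6 and 60.4, 49.5 and 49.5) stayed near their 6 h level. Scd2, a fatty acid desaturase, fell at 6 h (-2.34 ± 0.50) but held 21.8 and 21.4 CPM unwounded, 4.43 and 4.07 at 6 h and 55.6 and 67 at 12 h.

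**Figure D5:**
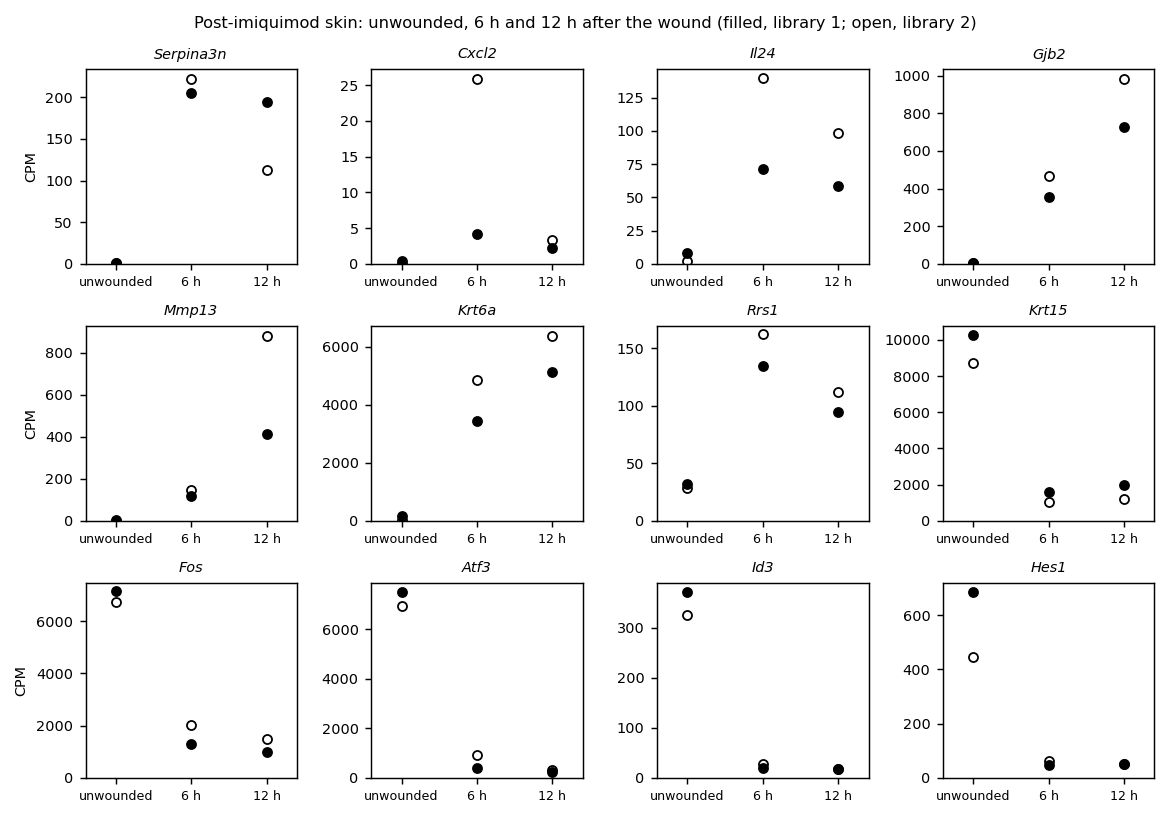
CPM of 12 named genes in post-imiquimod skin, unwounded and at 6 h and 12 h after the wound, with library 1 filled and library 2 open. Mmp13, Gjb2 and Krt6a were highest at 12 h, Cxcl2 and Rrs1 at 6 h, and Krt15, Fos, Atf3, Id3 and Hes1 were low at both times.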

How the data were processed

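RNA was measured in 16 libraries of 8 groups, 2 libraries each, of which 4 are compared here. Values are raw read counts per gene, deposited by the authors as whole numbers. They were made with STAR on mm10, per the submitters' processing notes, without a version. The strand setting behind them is unknown here. Libraries were TruSeq preparations, per the labels' protocols. Antisense and overlapping genes may share reads. All 16 libraries, with totals of 23623968 to 76993427, entered 1 fit of 8 group means in edgeR 4.0.16 under R 4.3.3 (TMM scaling, filterByExpr, robust quasi-likelihood, 8 residual degrees of freedom), which kept 17299 genes out of 30802 that had any read. The biological coefficient of variation was 23%. IDs were matched to symbols without version (47224 of 47729), and IDs with no symbol held at most 0.0887% of a library. P values are two-sided. The fit was checked on simulated data.

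Replicates differed by more than counting noise (r 0.985 in 6 h wounds and 0.972 in unwounded skin across genes), so none was treated as a library deposited more than once. This does not show that they came from separate mice. Precision from counts covers counting error only. The test of the difference used the contrast of both wound effects. Alternatives were RLE scaling, DESeq2 1.42.0, no filter, only compared libraries, leaving out each library, replicate blocks, a sex term, leaving out libraries with Y-linked reads, thinning and stricter thresholds.

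Genes named are the 14 per direction with the largest log2 change and the 8 with the largest CPM difference among genes that passed in every fit without a library, did not overlap and had a mean of at least 2 log2 CPM, leaving out predicted genes, plus a panel of 16 genes and up to 4 members per list. Lists numbered 43 for pathways and 16 for other cells or quality (1028 genes, 1026 found, 960 tested). Genes and lists were chosen with earlier results of these data known. Some further list members are named that were chosen after their values were seen. Some items are not reported here.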

Additional observations from a re-analysis of the deposited data

Results flagged for a closer look

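Mycn, a relative of Myc, moved in opposite directions in the 2 skins without overlap of the groups. It had 0.0897 and 0.237 CPM in 6 h wounds, against 0.905 and 0.275 CPM in unwounded skin after imiquimod, and 0.575 and 1.16 CPM in 6 h wounds, against 0.378 and 0.561 CPM in unwounded skin after the control cream. The difference of the wound effects was -2.82 (SE 0.98) on the log2 scale and did not pass the edgeR test (adjusted p = 0.69). The 4 post-imiquimod libraries held 6 to 20 reads of the gene each.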

How the results depend on the processing

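The counts of genes that rose and fell stayed within 1.5 times of 3485 and 3210 under RLE scaling, DESeq2, no filter, the compared libraries only, both blocks, a sex term, no libraries with Y-linked reads and thinning. An adjusted p under 0.01 left 2347 that rose and 1883 that fell, and a log2 change of at least 1 left 1646 and 2073. Leaving out 1 compared library gave 2269 to 2854 that rose and 1775 to 2794 that fell, lowest without wound library 2. A sex term gave 3514 and 3439, of which 3092 and 2825 were shared with the counts first given. For the difference between the skins edgeR called none. DESeq2 called 14 positive and 13 negative, the Y-linked Uty among the latter, and no filter on low counts gave 132 and 123. Without the libraries with Y-linked reads 1 gene was positive (Pnpla1), and a block by replicate number within each time point gave 3 (S100a8 and S100a9 at 4.42 and 4.19, adjusted p = 0.00538 for both, and Gk at 1.42, adjusted p = 0.0407). Samples with the same replicate number deviated together between the skins within a time point (correlation 0.539 at 6 h and 0.452 in unwounded skin), but not between 6 h wounds and unwounded skin (-0.14 after imiquimod and -0.0385 after the control cream). With 2 pairs each, this is a hint from the data and not the design, so a replicate block is only an alternative. Over all libraries it gave 3556 that rose and 3254 that fell, and within each time point 4421 and 4196. With the numbers crossed, added after the data were seen, 3479 rose and 3135 fell. Krt14, not called, changed sign with a sex term (0.2509) and without the libraries with Y-linked reads (0.1791), and ranged between -0.5443 and 0.1548 without single libraries. Hbegf, also not called, ranged between -0.5631 and 0.0296. The causes were not tested. Depth limits Sprr2e, Defb3, Cxcl5 and Mycn, with few reads in a group. With 2 libraries a group, 1 library decides many list counts.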

Other observations

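Lipid signalling, stress sensing and sterol genes changed in single members. Of 10 prostaglandin and lipid mediator genes 3 rose and 2 fell (median 0.21), or 1 fell without wound library 2. Pla2g4e, a phospholipase, had 122 and 182 CPM in 6 h wounds, against 6.88 and 3.3 CPM in unwounded skin (change 4.92 ± 0.79, adjusted p = 0.000982 by edgeR). Ptges, which makes prostaglandin E2, had 588 and 696 CPM in 6 h wounds, against 296 and 161 CPM in unwounded skin (change 1.49 ± 0.32, adjusted p = 0.0031), while the receptor Ptger4 had 27.6 and 28.7 CPM in 6 h wounds, against 74.9 and 121 CPM in unwounded skin (change -1.80 ± 0.19, adjusted p = 2.23e-05). Of 19 p53 targets 3 rose and 8 fell (median -0.58), and 5, 4 and 5 fell without unwounded library 1, wound library 1 and wound library 2. Trp53inp1 had 54.4 and 51 CPM in 6 h wounds, against 324 and 362 CPM in unwounded skin (change -2.70 ± 0.46, adjusted p = 0.00102), and the nuclease gene Aen had 75.4 and 79.5 CPM in 6 h wounds, against 27.7 and 26.8 CPM in unwounded skin (change 1.51 ± 0.17, adjusted p = 3.51e-05).

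Chaperone genes went both ways. Of 20 heat shock and chaperone genes 5 rose and 6 fell (median 0.20). The mitochondrial chaperonin Hspd1 had 239 and 248 CPM in 6 h wounds, against 84.7 and 54.6 CPM in unwounded skin (change 1.80 ± 0.20, adjusted p = 3.53e-05). The stress-induced cytosolic genes Dnajb1, with 241 and 365 CPM in 6 h wounds, against 1603 and 1722 CPM in unwounded skin (change -2.46 ± 0.29, adjusted p = 5.04e-05), and Hspb8, with 75.9 and 89.7 CPM in 6 h wounds, against 475 and 373 CPM in unwounded skin (change -2.36 ± 0.19, adjusted p = 8.9e-06), fell. Of 29 sterol and fatty acid synthesis genes 2 rose and 5 fell (median -0.18), with 1 riser without unwounded library 1 and none without either wound library. The fallers included Tm7sf2 (4 and 3.2 CPM in 6 h wounds, against 8.33 and 9.53 CPM in unwounded skin, change -1.30 ± 0.25). Thbs1, a matrix protein of early wounds, had 512 and 846 CPM in 6 h wounds, against 4929 and 5475 CPM in unwounded skin (change -2.94 ± 0.69), with an adjusted p of 0.0537 without wound library 1.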
